A study of Mus musculus with 8 samples.

Results

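Krueppel-like factors are transcription factors named for a Drosophila gap gene, and 10 of the genes that encode them in the mouse were followed here in injured liver. They were taken by name (Klf2, Klf3, Klf4, Klf5, Klf6, Klf9, Klf10, Klf11, Klf13 and Klf15) from the deposited counts of reads per gene, and each was found under the same Ensembl identifier in both count tables, so that they made up 10 of 48286 genes shared by the tables. Liver RNA came from 8 WT male C57BL/6J mice of 8-9 weeks, with 2 livers in each of 4 groups, and it was taken 24 h after the dose. TAA livers came from fed mice given thioacetamide (TAA) at 200 mg/kg into the peritoneum, and PBS livers came from fed mice given the same volume of saline. Fasted_APAP livers came from mice fasted overnight, given acetaminophen (APAP) at 500 mg/kg into the stomach and kept without food for another 6 h, and Fasted_PBS livers came from fasted mice given saline. Both treatments are models of acute liver failure (ALF), and each was set against its own controls. Agent, route, feeding and count table differ together between the 2 models, so these cannot be told apart where the models are compared.

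Proteins of the family bind GC-rich and CACCC-type DNA through zinc fingers near their C terminus, and differ in the remainder of the protein, through which some recruit activators and others recruit repressors such as CtBP or Sin3. In liver the family is known for early responses to injury and growth factors (KLF6, KLF10, KLF11), for the hormonal control of fasting metabolism (KLF9, KLF15) and, in the vessel wall, for the quiet state of endothelium (KLF2, KLF4). Several of them are made by more than 1 liver cell type, and in RNA from whole liver fewer cells of a type and less RNA per cell cannot be told apart.

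Counts in named genes came to 35711238-36272636 in TAA livers, 38766065-41453751 in PBS livers, 23223479-25242490 in Fasted_APAP livers and 22320159-27110074 in Fasted_PBS livers. Values below are CPM, the counts of a gene per 1000000 counts of its liver after scaling by edgeR's TMM factors. These factors were computed within each count table, so CPM are not on a shared scale between the models. Fold changes come from edgeR's quasi-likelihood test over all genes, with Benjamini-Hochberg adjustment and a gene called at an adjusted p under 0.05. Of the whole-liver markers, those of hepatocytes (Alb, Apoa1, Ttr, Cps1, Asgr1, Serpina1c) summed to 48450-88836 CPM in TAA livers and 67540-96648 CPM in PBS livers, and to 71119-84440 CPM in Fasted_APAP livers and 100689-116333 CPM in Fasted_PBS livers, so the tissue label held in all 8. Of the treated livers, TAA replicate 2 stood apart in erythroid genes, which summed to 239-1787 CPM over the TAA livers with that liver at the top, against 447-573 CPM in PBS livers. Nothing in the sources used here says whether the 2 livers of a group were handled on separate days, so p-values measure the spread between these livers only.

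After TAA, 4 of the 10 genes were called higher (Klf4, Klf6, Klf10, Klf11), where 12.1% of all 16847 genes tested were, and 1 was called lower (Klf15), where 13.8% of all genes were. After APAP, 4 were called higher (Klf2, Klf4, Klf5, Klf6), where 28.6% of all 14794 genes tested were, and 2 were called lower (Klf13, Klf15), where 27.5% were. Klf4, Klf6 and Klf15 were thus called in both models, each in the same direction in both. For 9 of 10 genes the TAA livers did not overlap the PBS livers, against 69.9% of all genes, and for 8 of 10 the Fasted_APAP livers did not overlap the Fasted_PBS livers, against 79.4% of all genes. All 10 passed the filter on low counts in both comparisons, Klf5 through its treated livers alone. The median log2 fold change of the 10 was 0.68 after TAA, beside 0.03 for all genes tested, and 0.26 after APAP, beside 0.04.

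**Figure D1:**
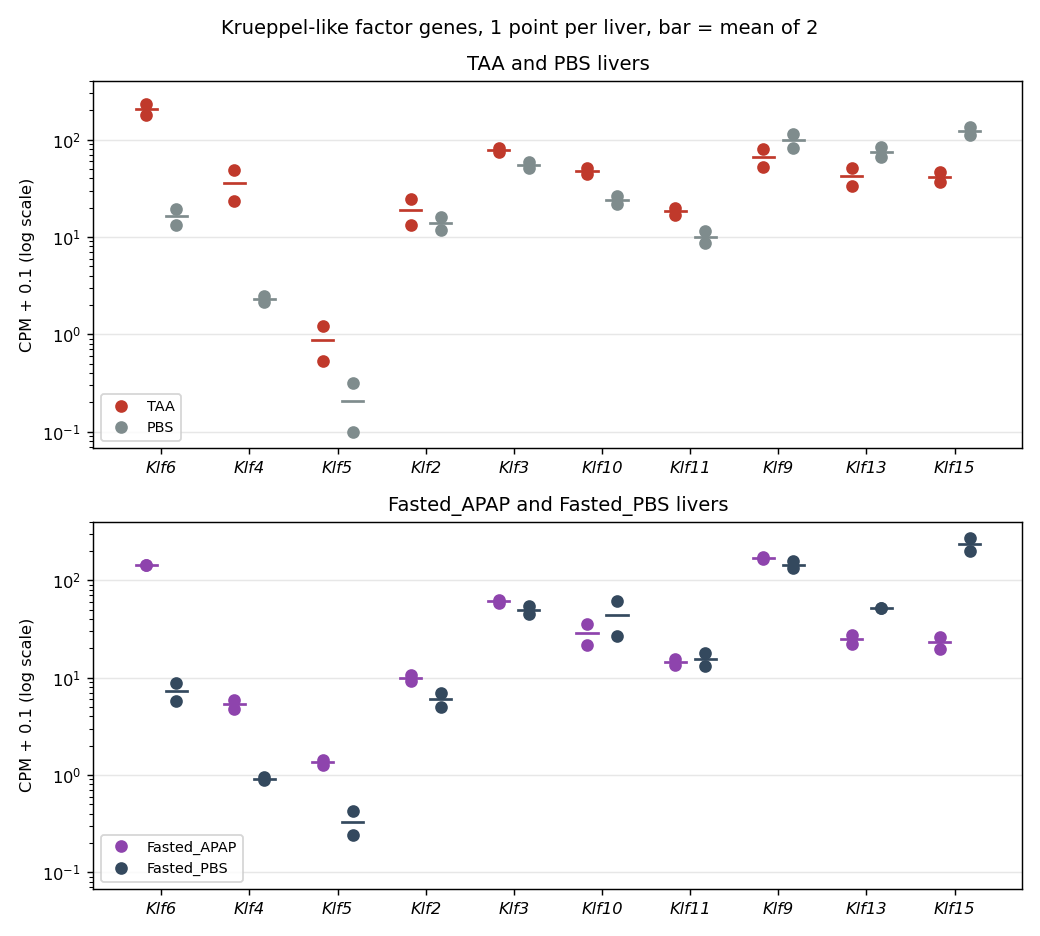
CPM of the 10 genes in each liver, with 0.1 added so that a value of 0 can be drawn, on a logarithmic axis (upper panel, TAA beside PBS; lower panel, Fasted_APAP beside Fasted_PBS; points are livers and bars are means of 2). Klf6 and Klf4 lie far above their controls in both panels and Klf15 lies below them, while the points of Klf2 overlap in the upper panel and those of Klf10 and Klf11 in the lower one.

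The DNA before the start sites of the 3 genes called in both models is shown for reference, as annotated by RefSeq on GRCm38.p6. Each line gives the 250 bases before the start, 5′ to 3′ on the strand of the gene, for Klf6 at chr13:5861239-5861488 (plus strand), Klf4 at chr4:55532476-55532725 (minus strand) and Klf15 at chr6:90462326-90462575 (plus strand), with each copy of the E-box CACGTG in capitals.
Klf6: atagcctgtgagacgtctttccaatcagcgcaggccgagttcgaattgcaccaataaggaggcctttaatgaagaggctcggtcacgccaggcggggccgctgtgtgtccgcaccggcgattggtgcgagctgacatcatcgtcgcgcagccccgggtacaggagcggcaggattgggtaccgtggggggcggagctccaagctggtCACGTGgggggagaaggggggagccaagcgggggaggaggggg
Klf4: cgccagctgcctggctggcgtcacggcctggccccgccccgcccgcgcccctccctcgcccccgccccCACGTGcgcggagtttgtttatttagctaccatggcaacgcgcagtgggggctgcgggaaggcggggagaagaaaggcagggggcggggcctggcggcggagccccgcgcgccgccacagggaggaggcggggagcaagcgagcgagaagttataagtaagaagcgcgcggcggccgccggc
Klf15: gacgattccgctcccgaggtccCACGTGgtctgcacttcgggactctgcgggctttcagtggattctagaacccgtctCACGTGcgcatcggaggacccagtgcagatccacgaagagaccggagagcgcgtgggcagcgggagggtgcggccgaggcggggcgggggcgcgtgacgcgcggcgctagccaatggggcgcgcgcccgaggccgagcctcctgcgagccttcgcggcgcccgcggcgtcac
The E-box lay 43 bases before the start in Klf6 and 182 bases before it in Klf4, whereas Klf15 had copies 228 and 172 bases before the start and another that began 3 bases before it and ran across it. In windows reaching 50 bases past the start, 8 of the 10 genes could be matched (Klf5 and Klf10 are named only), and CACGTG stood in 4 of those 8 (Klf4, Klf6, Klf11, Klf15), beside 7.15% of 32851 windows of the same length. It reads the same on both strands, and it was picked for display after the matches were seen, from 7 motifs searched on both strands with overlaps allowed. Of the others, the GC box GGGCGG stood in 7 of 8 (all but Klf9) and in 35.7% of all windows, the KLF box CACCC in 5 of 8 and in 57.5%, and CCAAT in 5 of 8 and in 37.4%. Matches to the AP-1 site TGANTCA were found in 1 of 8 (Klf9) and in 7.81% of windows, and none of the 8 had the cAMP element TGACGTCA (1.79% of windows) or the glucocorticoid receptor half-site AGAACA (19.0%). CACCC and GGGCGG can share bases, as can CACCC and CCAAT. The 8 windows were 63-77.7% G and C, so that GC-rich letters occur in them more readily than in most windows. A match is a description of the letters and not evidence that a factor binds there.

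Klf6, an early-response activator known in stellate cells and hepatocytes after injury, lies on chr13:5861482-5870394 (GRCm38, plus strand, as for all coordinates from here on in GENCODE M21). It had 181 and 233 CPM in TAA livers, against 19.2 and 13.2 CPM in PBS livers. It had 143.5 and 142.6 CPM in Fasted_APAP livers, against 5.73 and 8.77 CPM in Fasted_PBS livers. In each model both treated livers were far above both controls, and the Fasted_APAP pair nearly coincided. The fold change was 12.8 after TAA (log2 3.67 ± 0.26, approximate SE, edgeR quasi-likelihood adjusted p = 0.00281) and 19.8 after APAP (log2 4.31 ± 0.19, adjusted p = 5.2e-07). Klf6 kept its call under all 12 alternatives for TAA and all 13 for APAP. By size of change in either direction it stood at the 97.5th percentile of all genes after TAA and the 97.0th after APAP.

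Klf4, a pluripotency factor that also marks differentiated epithelium and quiescent endothelium, lies on chr4:55527143-55532466 (minus strand). It stood at 23.2 and 48.9 CPM in TAA livers (906 and 1866 counts), against 2.06 and 2.36 CPM in PBS livers (77 and 88 counts). In Fasted_APAP livers it stood at 4.64 and 5.80 CPM (113 and 158 counts), against 0.853 and 0.785 CPM in Fasted_PBS livers (21 and 17 counts). The groups did not overlap in either model, and the TAA livers differed from each other more than the other pairs did. Klf4 was 16.3-fold higher after TAA (log2 4.02 ± 0.41, edgeR adjusted p = 0.00475) and 6.34-fold higher after APAP (log2 2.66 ± 0.31, adjusted p = 5.8e-05). Without TAA replicate 1 or 2 its log2 fold change after TAA was at least 3.39, the lowest of its 12 alternatives.

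Klf2, which endothelium induces under laminar flow, lies on chr8:72319033-72321656 (plus strand). It had 13.0 and 24.6 CPM in TAA livers, against 11.7 and 16.0 CPM in PBS livers. It had 10.7 and 9.14 CPM in Fasted_APAP livers, against 4.91 and 6.84 CPM in Fasted_PBS livers. The TAA and PBS livers overlapped, and no change was called (log2 0.44 ± 0.34, edgeR adjusted p = 0.379, and -0.084 without TAA replicate 2), while the Fasted_APAP livers lay above both controls and the change was called (log2 0.76 ± 0.21, adjusted p = 0.0111). That call was lost without Fasted_APAP replicate 1 (adjusted p = 0.0791) or Fasted_PBS replicate 1 (adjusted p = 0.0899) and in a fit of all 8 livers together (adjusted p = 0.0882), and it ranged over adjusted p = 0.00117 to 0.0899 across the 13 alternatives. Sinusoidal endothelial markers (Stab2, Clec4g, Lyve1, Kdr, Pecam1, Cdh5, Oit3) summed to 121-182 CPM in TAA livers and 136-190 CPM in PBS livers, with 2 of 7 called higher and 2 lower, and to 154-161 CPM in Fasted_APAP livers and 137-156 CPM in Fasted_PBS livers, with 3 higher and 2 lower. Of all genes, 12.1% were higher and 13.8% lower after TAA, and 28.6% and 27.5% after APAP. None of the 7 markers was at 0 in any group. Their part in the values of Klf2 and Klf4 was not tested.

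Klf5, which drives growth in gut and other epithelia, lies on chr14:99298691-99315036 (plus strand) and was the least expressed of the 10. It had 17 and 43 counts in TAA livers (0.435 and 1.13 CPM), against 0 and 8 counts in PBS livers (0 and 0.215 CPM). It had 32 and 32 counts in Fasted_APAP livers (1.31 and 1.18 CPM), against 8 and 3 counts in Fasted_PBS livers (0.325 and 0.139 CPM). Treated livers were above their controls in both models, and the change was called after APAP (log2 2.37 ± 0.55, edgeR adjusted p = 0.00425) but not after TAA (log2 2.82 ± 1.20, adjusted p = 0.139). Because it passed the low-count filter only where it was high, its difference is in part fixed by that filter. Leaving out 1 liver, its log2 fold change ranged from 1.82 to 7.90 after TAA and from 1.87 to 3.10 after APAP. The call after APAP was lost in a fit of all 8 livers together (adjusted p = 0.0790). Cholangiocyte markers (Krt19, Krt7, Sox9, Epcam, Spp1) summed to 168-308 CPM in TAA livers and 94.4-150 CPM in PBS livers, and to 62.7-101 CPM in Fasted_APAP livers and 52.8-54.4 CPM in Fasted_PBS livers. Of these 5 only Sox9 was called, higher in both models, where 12.1% of all genes were higher after TAA and 28.6% after APAP. The part of these markers in the Klf5 counts was not tested.

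Klf10 and Klf11 are known as TGF-beta inducible early genes, whose products repress transcription through Sin3. Klf10, on chr15:38291463-38300706 (minus strand), had 44.6 and 51.5 CPM in TAA livers, against 26.4 and 21.7 CPM in PBS livers. It had 21.5 and 35.7 CPM in Fasted_APAP livers, against 26.8 and 60.7 CPM in Fasted_PBS livers. The TAA livers lay above both PBS livers, whereas the fasted groups overlapped and Fasted_PBS replicate 2 was the highest of the fasted livers. Klf10 was called 1.00 ± 0.17 higher on the log2 scale after TAA (edgeR adjusted p = 0.0130) and was not called after APAP (log2 -0.61 ± 0.61, adjusted p = 0.482, and 0.045 without Fasted_PBS replicate 2). Its TAA call was lost without PBS replicate 1 (adjusted p = 0.0564), without PBS replicate 2 (0.0931) and in the fit of all 8 livers (0.0927), within a range of 0.000108 to 0.0931 over 12 alternatives.

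Klf11, on chr12:24651274-24662789 (plus strand), had 16.8 and 19.6 CPM in TAA livers, against 11.4 and 8.59 CPM in PBS livers. It had 15.6 and 13.4 CPM in Fasted_APAP livers, against 13.2 and 18.0 CPM in Fasted_PBS livers. As for Klf10, the TAA livers were above their controls and the fasted groups overlapped. The change was called after TAA (log2 0.87 ± 0.21, edgeR adjusted p = 0.0354) and not after APAP (log2 -0.11 ± 0.17, adjusted p = 0.633), where its sign turned when libraries were scaled by their totals (log2 0.07). The TAA call did not hold when any 1 of the 4 livers was left out (adjusted p = 0.0771 without PBS replicate 1, 0.159 without PBS replicate 2, 0.0523 without TAA replicate 1 and 0.0940 without TAA replicate 2, and 0.00792 at the lowest over its alternatives).

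Klf3 is known chiefly as a repressor, and Klf13 acts in both directions. Klf3, which recruits CtBP, lies on chr5:64803388-64832901 (plus strand) and shares 404 exonic bases with Gm20033 on the other strand, and as the counting is not stated to use strand, reads of the pair cannot be told apart there. It had 81.4 and 73.8 CPM in TAA livers, against 59.6 and 51.4 CPM in PBS livers. It had 62.7 and 58.5 CPM in Fasted_APAP livers, against 54.8 and 44.8 CPM in Fasted_PBS livers. Treated livers were above controls without overlap in both models, but neither difference was called (log2 0.48 ± 0.15, edgeR adjusted p = 0.0671 after TAA, and log2 0.28 ± 0.12, adjusted p = 0.0725 after APAP). Each was called under 2 of its alternatives, the scaling by library totals among them (adjusted p = 0.0359 for TAA and 0.00692 for APAP). The other was the fit of all 8 livers for TAA (0.0279) and leaving out Fasted_PBS replicate 1 for APAP (0.0310).

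Klf13, best known in T cells as an activator of the chemokine gene Ccl5, lies on chr7:63886351-63938915 (minus strand). It had 33.2 and 51.6 CPM in TAA livers, against 84.8 and 66.0 CPM in PBS livers. It had 27.2 and 22.0 CPM in Fasted_APAP livers, against 51.5 and 51.6 CPM in Fasted_PBS livers. Treated livers lay below their controls in both models, and the difference was called after APAP (log2 -1.07 ± 0.13, edgeR adjusted p = 6.7e-05) but not after TAA (log2 -0.83 ± 0.25, adjusted p = 0.0651). Without TAA replicate 2, the higher of the TAA pair, it was called (log2 -1.18, adjusted p = 0.0216), as it was by DESeq2 (0.0173) and in the fit of all 8 livers (0.0188), over a range of 0.0173 to 0.230. T and NK cell markers (Cd3e, Cd3d, Nkg7, Klrb1c, Gzma) summed to 4.12-5.71 CPM in TAA livers and 5.23-13.0 CPM in PBS livers. They summed to 0.918-1.31 CPM in Fasted_APAP livers and 1.30-1.62 CPM in Fasted_PBS livers. None of the 5 was called after TAA, and none passed the low-count filter in the fasted comparison. Their part in the values of Klf13 was not tested.

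Klf9 and Klf15 are induced by glucocorticoids, and Klf9 also by thyroid hormone. Klf9, on chr19:23141226-23168134 (plus strand), had 52.7 and 80.3 CPM in TAA livers, against 82.5 and 113.8 CPM in PBS livers. It had 175 and 164 CPM in Fasted_APAP livers, against 132.5 and 157 CPM in Fasted_PBS livers. The values separated without overlap, below controls after TAA and above them after APAP, by margins small beside the spread within the control pairs. Neither difference was called (log2 -0.56 ± 0.26, edgeR adjusted p = 0.172 after TAA, and log2 0.23 ± 0.12, adjusted p = 0.131 after APAP). Scaling by library totals called the APAP difference (adjusted p = 0.0286, in a range of 0.0286 to 0.645 over 13 alternatives).

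Klf15, which in liver supports amino acid breakdown and the making of glucose during fasting, lies on chr6:90462576-90475238 (plus strand). It had 46.8 and 36.5 CPM in TAA livers, against 111 and 133.5 CPM in PBS livers. It had 26.3 and 19.6 CPM in Fasted_APAP livers, against 270 and 199 CPM in Fasted_PBS livers. Treated livers were below controls in both models with a wide gap. Klf15 was 2.94-fold lower after TAA (log2 -1.56 ± 0.19, edgeR adjusted p = 0.00644) and 10.2-fold lower after APAP (log2 -3.36 ± 0.21, adjusted p = 1.3e-05). Without PBS replicate 2 the TAA call was lost (log2 -1.41, adjusted p = 0.0571), the highest adjusted p among its 12 alternatives, while all 13 alternatives kept the APAP call. Beside it, hepatocyte markers were called lower in 1 of 6 after TAA (13.8% of all genes) and 5 of 6 after APAP (27.5% of all genes), with group sums given above. Their part in the values of Klf15 was not tested.

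**Figure D2:**
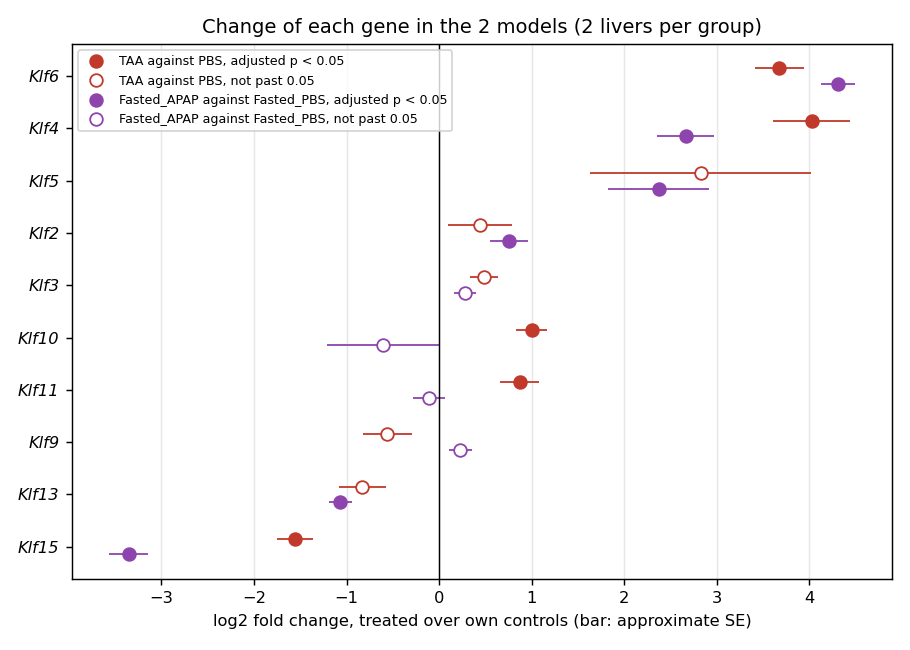
Log2 fold change of each gene after TAA (red) and APAP (purple) over its own controls, with approximate SE as bars (2 livers per group). Filled points had an adjusted p under 0.05. Klf6 and Klf4 lie to the right in both models, Klf15 to the left in both, and Klf15 is the gene whose 2 points are farthest apart beside their errors.

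To ask whether the models differed, the APAP effect was subtracted from the TAA effect in a fit of all 8 livers. Klf15 was the only member called (difference 1.77 ± 0.30 on the log2 scale, edgeR adjusted p = 0.00927), a smaller fall after TAA than after APAP, where 4.63% of 17381 genes were called with a positive difference and 6.37% with a negative one. It kept that call under all 12 alternatives, with differences between 1.53 and 2.05. None of the 10 was called negative by edgeR or DESeq2, and 5 of the 10 had an unadjusted p under 0.05, of which Klf9 was negative, beside 4639 of all 17381 genes. The differences of Klf10 (1.58, adjusted p = 0.126), Klf4 (1.33, 0.157), Klf11 (0.95, 0.0771) and Klf9 (-0.82, 0.139) were each called under at least 1 alternative, DESeq2 calling Klf10 (0.0127) and Klf11 (0.0430) beside Klf15. For Klf4 it was leaving out TAA replicate 1 that gave a call (0.00913), for Klf9 leaving out TAA replicate 2 (0.0266), for Klf10 also leaving out Fasted_PBS replicate 1 (0.0308) and for Klf11 also leaving out PBS replicate 1 (0.0472). Those of Klf6 (-0.66, adjusted p = 0.255), Klf2 (-0.35, 0.692), Klf5 (0.40, 0.929), Klf3 (0.17, 0.653) and Klf13 (0.21, 0.746) were not called in any. With 2 livers per group, a difference that was not called is no sign that the models act alike.

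The make-up of the family was then read from levels per exon length (CPM per kilobase), on which genes can be roughly compared. The length is that of all annotated exons of a gene joined, from 1847 bases for Klf2 to 11243 for Klf3. It is not that of the transcripts made in liver, so genes with long annotated exons may be understated. In TAA livers Klf6 came first at 47.1 ± 8.31 CPM per kilobase (SD, n = 2), followed by Klf15 (14.9 ± 2.60), Klf9 (13.8 ± 4.06), Klf4 (11.8 ± 5.97), Klf10 (11.5 ± 1.17) and Klf2 (10.2 ± 4.43), none of which differed from the next beyond their spread. In PBS livers Klf15 came first (43.8 ± 5.64), before Klf9 (20.4 ± 4.59) and Klf13 (10.01 ± 1.77), and Klf6 was at 3.69 ± 0.97. Klf6 thus stood ahead of the other 9 in TAA livers, and behind Klf2, Klf3, Klf9, Klf10, Klf13 and Klf15 in PBS livers. In Fasted_APAP livers Klf9 (35.3 ± 1.59) and Klf6 (32.6 ± 0.15) led and Klf15 was at 8.22 ± 1.70, whereas in Fasted_PBS livers Klf15 led with 84.0 ± 18.1 before Klf9 (30.1 ± 3.62) and Klf10 (10.5 ± 5.75), and Klf6 was at 1.65 ± 0.49. Klf5 was last in all 4 groups (0.0206-0.239). The other members lay between these values, and the order of neighbours among them mostly did not exceed their spread.

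**Figure D3:**
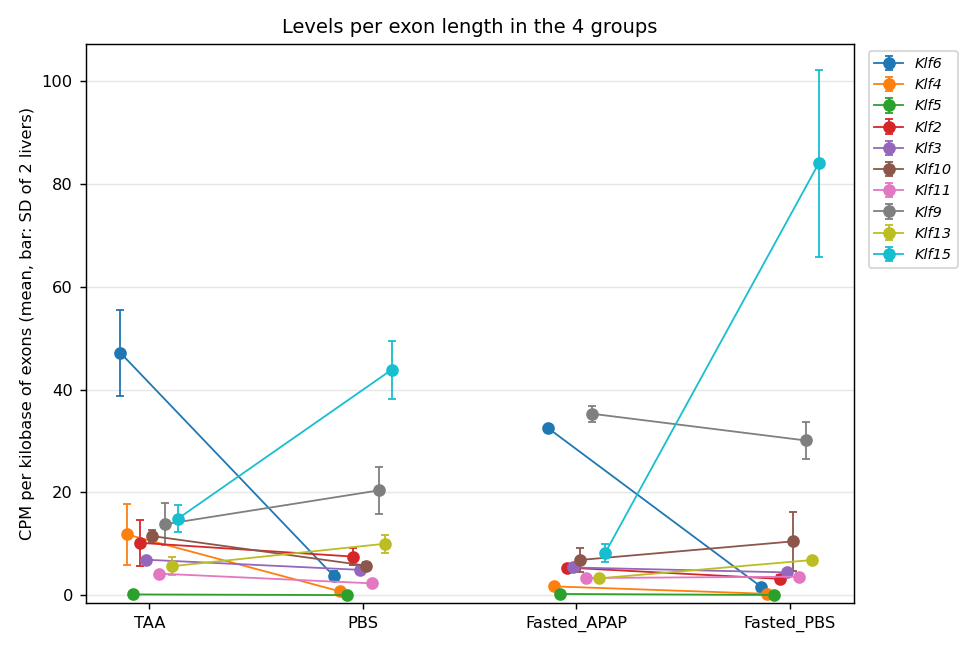
Mean CPM per kilobase of exons of the 10 genes in TAA, PBS, Fasted_APAP and Fasted_PBS livers, with SD of 2 livers as bars and lines joining each treated group to its own controls. Klf15 leads in both control groups, and Klf6 is first in TAA livers and close behind Klf9 in Fasted_APAP livers.

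The summed CPM of the 10 genes was also followed. The 10 genes together came to 493 and 621 CPM in TAA livers, against 409 and 427 CPM in PBS livers, and to 489 and 472 CPM in Fasted_APAP livers, against 561 and 547.6 CPM in Fasted_PBS livers. Klf6 held 36.7% and 37.5% of that sum in TAA livers, against 4.70% and 3.09% in PBS livers, and 29.4% and 30.2% in Fasted_APAP livers, against 1.02% and 1.60% in Fasted_PBS livers. For Klf15 the shares were 9.48% and 5.88% in TAA livers, against 27.2% and 31.3% in PBS livers, and 5.38% and 4.14% in Fasted_APAP livers, against 48.2% and 36.3% in Fasted_PBS livers. These shares are of reads and so weigh long transcripts more.

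Genes whose 4 treated livers, each taken against the mean of its own controls, moved most like Klf6 or Klf15 were listed by root mean square difference of log2(CPM + 1) over 8044 genes. Nearest to Klf6 were Ier5, an immediate early gene (0.24), Syt12 (0.36), Tubb6, a beta tubulin (0.36), and Mt1, a metallothionein (0.43). Nearest to Klf15 were Serpind1, which encodes the plasma thrombin inhibitor heparin cofactor II (0.16), Lrrc3 (0.21), Sc5d, a sterol desaturase of cholesterol synthesis (0.22), and Cmah, a sialic acid hydroxylase (0.22). With 4 livers such closeness is a description and says nothing of shared control.

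Of 16 further genes of the KLF and SP family, 9 passed the filter in each comparison, TAA livers having 2 of them higher and 1 lower (median log2 0.32) and Fasted_APAP livers having 2 higher and 2 lower (median log2 -0.17). Over all genes tested, 12.1% were higher and 13.8% lower after TAA, and 28.6% and 27.5% after APAP. Klf12, a repressor related to KLF3, had 1.31 and 1.36 CPM in Fasted_APAP livers, against 20.5 and 25.4 CPM in Fasted_PBS livers (log2 -4.09, edgeR adjusted p = 2.5e-07). No change of Klf12 was called after TAA (log2 -0.77, adjusted p = 0.126), and its difference between models was called (3.30, edgeR adjusted p = 0.00142). Sp2 was higher in both models (log2 1.02 after TAA and 1.21 after APAP), Klf16 after TAA (0.98) and Sp1 after APAP (0.57). Klf1, the erythroid member, was lower in both, at 1.87 and 0.970 CPM in TAA livers, against 5.87 and 6.31 CPM in PBS livers, and at 1.31 and 1.40 CPM in Fasted_APAP livers, against 2.68 and 2.45 CPM in Fasted_PBS livers. Of 5 erythroid markers none was called after TAA, where the TAA livers differed widely from each other, and after APAP the 4 globin genes were higher and Alas2, the erythroid enzyme of heme synthesis, was lower (log2 -1.47).

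Genes that the literature ties to single members were set beside them. Of 8 amino acid enzymes linked to KLF15 in liver or muscle, 6 were lower in each model (median log2 -1.60 after TAA and -1.46 after APAP). Beside them 13.8% of all genes were lower after TAA and 27.5% after APAP. Cps1, the entry enzyme of the urea cycle, had 1122 and 1816 CPM in TAA livers, against 3137 and 3506 CPM in PBS livers, and 565 and 748 CPM in Fasted_APAP livers, against 3608 and 2871 CPM in Fasted_PBS livers. Oat (log2 -2.81 and -2.52), Otc (-1.55 and -1.44) and Gpt (-1.64 and -0.91), which handle ornithine and alanine, were also lower, the first value of each pair being after TAA and the second after APAP. Tat and Sds were not called in either. Cps1 is also 1 of the 6 hepatocyte markers.

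Of 14 genes known to be induced through the glucocorticoid receptor, 8 were higher and none lower after TAA (median log2 1.33), and 5 were higher and 3 lower after APAP (median log2 0.00). The shares of all genes were 12.1% higher and 13.8% lower after TAA, and 28.6% and 27.5% after APAP. Tsc22d3, a classical target also called GILZ, had 22.9 and 22.1 CPM in Fasted_APAP livers, against 170 and 130 CPM in Fasted_PBS livers (log2 -2.74, edgeR adjusted p = 4.2e-07). Fkbp5, a co-chaperone that dampens the receptor, was higher in both models (log2 1.25 after TAA and 0.99 after APAP), as was Angptl4, an inhibitor of lipoprotein lipase (1.30 and 0.84). Igfbp1, which binds insulin-like growth factors, had 635 and 519 CPM in TAA livers, against 96.4 and 111 CPM in PBS livers. It had 90.8 and 169 CPM in Fasted_APAP livers, against 218 and 401 CPM in Fasted_PBS livers, and was not called there (log2 -1.25, edgeR adjusted p = 0.166). Its difference between models was called (3.70, edgeR adjusted p = 0.00566). Pck1, the gluconeogenic enzyme, was lower after APAP (log2 -2.46). After TAA, Tsc22d3 and Pck1 were lower without a call (log2 -0.59 and -1.13, edgeR adjusted p = 0.0932 and 0.182), while 8 of the 14 were called higher. The difference between models was called for Tsc22d3 (2.12, edgeR adjusted p = 0.00323) and not for Pck1 (1.30, adjusted p = 0.299). The part of the receptor in the fall of Klf15 was not tested.

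The 9 genes linked to KLF2 and KLF4 in endothelium included 6 called higher in each model, among them Nos3, Thbd, Edn1, Sele and Adm. Their medians were 3.42 after TAA and 2.35 after APAP, and 1 was lower after APAP (S1pr1, log2 -1.52). Beside these counts, 12.1% of all genes were called higher and 13.8% lower after TAA, and 28.6% and 27.5% after APAP. The difference of S1pr1 between models was called (1.52, edgeR adjusted p = 0.00382). In endothelial cells KLF2 is known to raise Nos3 and Thbd and to lower Edn1 and Sele, and genes of both kinds were among those called higher. The part of KLF2 or KLF4 in these values was not tested. Sele and Edn1 had at most 12 counts in any control liver and passed the low-count filter through the treated livers, so their difference is in part fixed by that filter. Thbd, thrombomodulin, had 23.7 and 39.2 CPM in TAA livers, against 3.32 and 2.55 CPM in PBS livers. Adm, which encodes a vasodilator peptide, was also higher in both (log2 4.17 and 2.72 after TAA and APAP).

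Among 10 genes linked to KLF6, 3 were higher and 1 lower after TAA (median log2 0.16), and 4 were higher and 2 lower after APAP (median 0.10). Of all genes, 12.1% were higher and 13.8% lower after TAA, and 28.6% and 27.5% after APAP. Cdkn1a, the cell cycle inhibitor p21, had 212 and 239 CPM in TAA livers, against 3.37 and 2.52 CPM in PBS livers, and 229 and 176 CPM in Fasted_APAP livers, against 3.17 and 3.93 CPM in Fasted_PBS livers (edgeR adjusted p = 0.0015 and 5.5e-08). Cdh1, E-cadherin, was called higher after TAA (log2 1.88) and not after APAP, and its difference between models was called (1.97, adjusted p = 0.0127). Tgfbr1, a TGF-beta receptor, was higher in both (0.68 and 0.65), while Atg7, an autophagy enzyme, was lower in both (-1.04 and -0.64). After APAP Tgfbr2 was higher (0.85) and Eng, endoglin, was lower (-0.41).

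TGF-beta early response genes, the group to which Klf10 and Klf11 belong by function, were called higher in 6 of 10 after TAA (median log2 1.18) and in 8 of 10 after APAP (median 1.69), and none was called lower. Of all genes, 12.1% were called higher after TAA and 28.6% after APAP. Ccn2, which encodes a matricellular protein, was higher in both (log2 4.31 after TAA and 2.30 after APAP), as was Id1, an inhibitor of basic helix-loop-helix factors (3.56 and 3.44). Klf10 and Klf11 themselves were called after TAA and not after APAP, and their difference between models was not called. Of 12 cofactors and turnover genes, 1 was lower after TAA, beside 13.8% of all genes. After APAP 1 was higher and 4 lower, beside 28.6% and 27.5% of all genes. Kat2b, an acetyltransferase also known as PCAF, was lower in both (log2 -1.03 and -1.84), Wwp1, a ubiquitin ligase for KLF proteins, was lower after APAP (-0.60) and Hdac2 was higher there (0.70).

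Of 10 upstream signals (the MEK5-ERK5-MEF2 route to Klf2 and Klf4, the receptor for glucocorticoids, and Smads), TAA livers had 2 higher and 1 lower, beside 12.1% and 13.8% of all genes. Fasted_APAP livers had 4 higher and 3 lower, near the 28.6% and 27.5% of all genes. Nr3c1, the glucocorticoid receptor, was lower in both (log2 -0.53 after TAA and -0.78 after APAP). Mef2d was higher in both (0.55 and 1.39), as was Mapk7, which encodes ERK5 (1.27 and 0.88). Summed levels of markers of myeloid cells are given beside these values. Neutrophil markers (S100a8, S100a9, Retnlg, Csf3r, Cxcr2, Ly6g) summed to 91.0-104 CPM in TAA livers and 47.0-63.4 CPM in PBS livers, with 3 of 5 tested called higher, and to 20.3-21.2 CPM in Fasted_APAP livers and 2.44-3.19 CPM in Fasted_PBS livers, with 5 of 5 higher. The controls of the fasted model had few or no counts for several of these genes, which passed the filter through the treated livers, so that count is in part fixed by the filter. Monocyte and macrophage markers (Ly6c2, Ccr2, Lyz2, Itgam, Cd68, Chil3) summed to 304-354 CPM in TAA livers and 180-208 CPM in PBS livers, with 2 of 6 called higher. They summed to 46.0-46.1 CPM in Fasted_APAP livers and 23.8-45.9 CPM in Fasted_PBS livers, with 4 of 5 tested called higher. Lyz2, the largest part of the Fasted_PBS sums, had 420 and 457 counts in Fasted_APAP livers, against 480 and 864 in Fasted_PBS livers. Cd68 had 543 and 515 counts, against 71 and 69. Chil3 had 3 and 2 counts in Fasted_PBS livers and passed the filter through the treated livers, so the count of calls is in part fixed by the filter. Kupffer cell markers (Clec4f, Timd4, Vsig4, Cd5l, Marco, C1qa) summed to 511-516 CPM in TAA livers and 614-714 CPM in PBS livers, with 1 of 6 higher and 3 lower, and to 65.6-89.2 CPM in Fasted_APAP livers and 87.4-180 CPM in Fasted_PBS livers, with 1 lower. Stellate cell markers (Lrat, Des, Rgs5, Pdgfrb, Reln, Dcn) summed to 201-270 CPM in TAA livers and 257-306 CPM in PBS livers, with 1 of 6 higher, and to 221-228 CPM in Fasted_APAP livers and 149-150 CPM in Fasted_PBS livers, with 1 higher and 1 lower. No B cell marker was called in either model, of 4 tested after TAA and 2 tested after APAP. The B cell markers summed to 11.2-16.6 CPM in TAA livers and 6.75-9.96 CPM in PBS livers. Their sums were 1.73-2.67 CPM in Fasted_APAP livers and 1.22-2.68 CPM in Fasted_PBS livers. The part of these cell types in the rise of Klf4 and Klf6, which several of them express, was not tested.

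**Figure D4:**
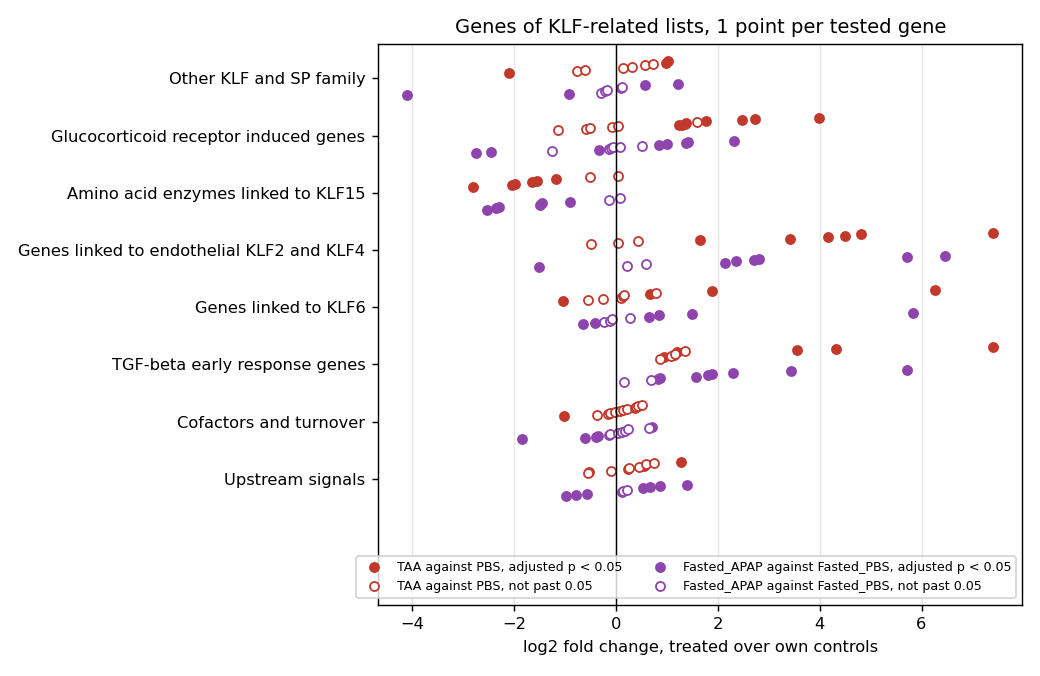
Log2 fold change of each tested gene of 8 lists related to the family, after TAA (red) and APAP (purple) over own controls, 1 point per gene. Filled points had an adjusted p under 0.05. The amino acid enzymes linked to KLF15 lie left of 0 or near it in both models, and the TGF-beta early response genes lie right of it.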

How the data were processed

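Liver RNA-seq of 8 mice was analysed. Per the submitters' processing notes, the authors trimmed with Trim Galore, aligned with HISAT2 to GRCm38 (mm10) and counted with featureCounts. The sources used here give no versions. For PBS and TAA livers the authors deposited whole-number counts. For fasted livers they deposited estimated counts, 26.4-29.1% of the nonzero values fractional, which were rounded. Which step made the fractions is not given. Loci that name no gene held 2.43-2.46% of Fasted_APAP totals and 0.457-0.498% of Fasted_PBS totals and were left out.

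Each model was tested in R 4.3.3 with edgeR 4.0.16 (filterByExpr with minimum count 10 and minimum total 15, TMM, robust quasi-likelihood test, two-sided, Benjamini-Hochberg over all genes tested). The printed SE is the absolute log2 fold change over the square root of F, and is approximate. The difference between models was fitted on 17381 genes of all 8 livers. The test was tried on simulated data first. Replicates differed by far more than sampling noise (chi-square per degree of freedom 21.6-154 over genes with at least 20 counts), so none is a copy. Exon lengths came from GENCODE M21 and promoters from RefSeq (GRCm38.p6). Alternatives were DESeq2 1.42.0, its size factors in edgeR, library totals, other low-count filters, a test without robust dispersions, the loci that name no gene kept (APAP), all livers in 1 fit, a replicate block and leaving out each liver. The members and lists were chosen with earlier results of these data known. Named genes are the 10 members, at most 4 called genes per list and comparison by highest mean CPM (others in a list are named only to say which were called), and the 4 nearest in pattern. A gene within this rule is counted in its lists but not reported here by name. Cell types were judged from fixed marker lists. Figures were drawn with matplotlib 3.10.9.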

Additional observations from a re-analysis of the deposited data

Results flagged for a closer look

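Klf15 differed between the models by a test of the difference itself. Its log2 fold change was -1.56 after TAA and -3.36 after APAP, and the TAA effect minus the APAP effect was 1.77 ± 0.30 (edgeR quasi-likelihood test on all 8 livers, Benjamini-Hochberg adjusted p = 0.00927). The 2 treated groups stood at 46.8 and 36.5 CPM (TAA) and 26.3 and 19.6 CPM (Fasted_APAP), and their own controls at 111 and 133.5 CPM (PBS) and 270 and 199 CPM (Fasted_PBS). Both the control levels and the treated levels therefore differ between the tables, which were scaled separately. Agent, route, feeding and count table go together, so which of these the difference belongs to cannot be told apart.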

How the results depend on the processing

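Of 119 member values recomputed for TAA, 103 kept direction and side of the threshold, as did 118 of 130 for APAP and 108 of 120 for the difference. In what follows each count of members stands with the share of all genes called the same way. Members called lower after TAA (1, with 13.8% of all genes) were 2 with DESeq2 (Klf13, Klf15, 16.5%). They were 2 with all 8 livers in 1 fit (17.9%) and 2 with the replicate block (Klf9, Klf15, 12.6%). Leaving out 1 liver moved that count in either direction. Members called higher after TAA (4, with 12.1%) were 5 with library totals (18.0%) and 3 with the replicate block (10.4%). They were fewer when 1 liver was left out, where fewer of all genes were called higher too. Members called higher after APAP (4, with 28.6%) were 6 with library totals (34.8%) and 2 with all 8 livers in 1 fit (20.9%). For the difference, positive calls (1, with 4.63%) were 3 with DESeq2 (6.59%) and 2 with the replicate block (3.42%). Negative calls were 0 in both. Leaving out 1 liver added a positive or a negative call in some fits.

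Signs turned only for values that were not called. Leaving out 1 liver, the log2 fold change ranged from -0.084 to 0.83 for Klf2 after TAA, from -1.10 to 0.045 for Klf10 and -0.33 to 0.079 for Klf11 after APAP, and the difference ranged from -0.51 to 5.07 for Klf5, -0.77 to 0.10 for Klf2 and -0.037 to 0.55 for Klf13. With library totals Klf11 after APAP was 0.068. Library totals moved the median of all genes by 0.21 (TAA) and 0.18 (APAP) on the log2 scale, and the share of calls that were higher from 46.7% to 63.4% and from 51.0% to 61.9%.

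Deviations of same-numbered livers from their group means were correlated at 0.07 (TAA against PBS) and 0.06 (Fasted_APAP against Fasted_PBS). In a group of 2 the deviation of replicate 2 mirrors that of replicate 1, so the 2 pairs are not separate evidence. These values therefore cannot show whether the numbers pair the livers. The replicate block called Klf10 lower after APAP (log2 -0.55, edgeR adjusted p = 0.00618) and Klf10 in the difference (0.0208), and Klf11 after TAA was no longer called (0.0550). The cause of these changes was not tested. A fit that leaves out a liver has 1 sample in a group, assumed to vary like the others. Depth limits Klf5, with at most 43 counts in any liver.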
